A study of Mus musculus with 6 samples.

Results

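The pyruvate dehydrogenase complex (PDC) and its dedicated regulators were followed through RNA-seq of cardiomyocyte (CM) nuclei in which constitutively active YAP was overexpressed (OE). The 10 genes were taken by name, as the rows of the count table whose Ensembl identifiers carry these symbols in GENCODE M21, out of 54532 genes in all: *Pdha1*, *Pdhb*, *Dlat* and *Pdhx* of the complex, the kinases *Pdk1*, *Pdk2*, *Pdk3* and *Pdk4*, and the phosphatases *Pdp1* and *Pdp2*. Wildtype ICR mice received 1e+11 viral genomes of AAV9 under the skin at 6 d of age, carrying GFP, YAP6SA or YAP5SA behind the cardiac troponin T (cTnT) promoter, which restricts the cassette to CMs. Hearts were collected at 9 d of age, so every library, the GFP control included, comes from a virus-infected heart 3 d after delivery. YAP5SA cannot be phosphorylated at its LATS sites. YAP6SA carries the same substitutions and a further serine-to-alanine change that disrupts binding to TEAD, the DNA-binding partner of YAP. The labels give 2 hearts per virus and do not say whether a library is 1 heart. Nuclei were pulled down with an antibody to PCM-1, which surrounds CM nuclei, and poly-A RNA was sequenced without strand information in 2 libraries per group, 1 in each of 2 batches.

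PDC sits on the inner side of the mitochondrial inner membrane and turns pyruvate into acetyl-CoA, the step that commits carbon from glucose and lactate to oxidation. *Pdha1* and *Pdhb* encode the alpha and beta subunits of E1, which decarboxylates pyruvate. *Dlat* encodes E2, which forms the core of the complex and makes acetyl-CoA, and *Pdhx* encodes the E3-binding protein that docks the last enzyme, E3. PDK kinases shut the complex off by phosphorylating E1 alpha, and PDP phosphatases turn it back on. In the heart, *Pdk4* is known as the kinase that is induced by fasting and fatty acids, and *Pdk1* as a target of the hypoxia-inducible factor HIF.

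Compared with GFP, YAP5SA OE CMs had lower RNA of 6 of the 10 genes: *Pdhb*, *Dlat*, *Pdk1*, *Pdk2*, *Pdp1* and *Pdp2*. These genes hold parts of the enzyme core, kinases and phosphatases alike, and none of the 10 was called higher. Of all genes tested, 22.0% were called in that comparison, and 9.18% were called lower. DESeq2, an alternative test, called 4 of the 6, and none was called when the adjustment for batch was dropped. The median log2 difference was -0.57 over the 10 genes and -0.76 over 8 CM markers. Between the YAP variants, YAP5SA OE CMs had the lower *Pdk4*, *Pdk2* and *Dlat*, and *Pdk4* was 2.79-fold lower than in YAP6SA OE CMs. In that comparison 14.7% of all genes were called, and 5.68% were called lower. The *Pdk4* call was lost in DESeq2, and only *Pdk2* stayed called when the adjustment for batch was dropped. No gene of the 10 passed the test between YAP6SA and GFP, and 0.0450% of all genes did. The count over all genes moved with the setting. It was 6 in this fit, 0 when the adjustment for batch was dropped and 276 when only the 4 libraries compared were fitted. *Pdk4* differed widely between the GFP libraries, and its difference from GFP moved with the control library left out. With both GFP libraries kept, *Pdk4* was called higher in YAP6SA with no filter on low counts and with only the 4 libraries compared.

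The upstream sequences of the genes that differed between the YAP variants, and of *Pdp2*, the gene with the largest fitted difference from GFP, are shown because YAP acts on promoters and enhancers through TEAD. The RefSeq promoter table of GRCm38.p6 held 9 of the 10 genes, all but *Pdp1*. *Pdk1* and *Pdk2* had 2 entries each, and only the entry nearest the GENCODE 5′ end was searched. Windows are printed 5′ to 3′ on the strand of the gene, up to the base before the RefSeq start or the GENCODE 5′ end, whichever is farther upstream, and capitals mark matches to the motifs searched.
Pdk4, chr6:5496310-5496528, minus strand: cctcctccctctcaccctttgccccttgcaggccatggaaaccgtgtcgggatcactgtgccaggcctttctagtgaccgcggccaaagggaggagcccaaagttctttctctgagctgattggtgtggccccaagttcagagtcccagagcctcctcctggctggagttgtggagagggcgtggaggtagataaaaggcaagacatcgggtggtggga
Pdk2, chr11:95041372-95041621, minus strand: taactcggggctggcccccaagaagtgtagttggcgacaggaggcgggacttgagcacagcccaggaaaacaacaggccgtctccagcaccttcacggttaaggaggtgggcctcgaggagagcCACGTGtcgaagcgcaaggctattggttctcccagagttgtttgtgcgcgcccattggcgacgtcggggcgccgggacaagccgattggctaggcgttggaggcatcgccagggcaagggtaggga
Dlat, chr9:50659781-50660030, minus strand: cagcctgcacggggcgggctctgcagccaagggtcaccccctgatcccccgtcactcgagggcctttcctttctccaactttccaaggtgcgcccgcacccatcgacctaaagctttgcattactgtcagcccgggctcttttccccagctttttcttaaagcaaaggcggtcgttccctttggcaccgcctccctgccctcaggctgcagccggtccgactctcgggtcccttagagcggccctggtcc
Pdp2, chr8:104591222-104591450, plus strand: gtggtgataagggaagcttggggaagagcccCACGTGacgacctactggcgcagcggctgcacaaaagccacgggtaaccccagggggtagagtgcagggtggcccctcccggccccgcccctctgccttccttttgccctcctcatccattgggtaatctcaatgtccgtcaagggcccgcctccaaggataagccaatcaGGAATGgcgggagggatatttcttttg

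The motifs searched, on both strands of each 300-base promoter, were the TEAD motif GGAATG, the FOXO motif GTAAACA, the nuclear receptor element AGGTCA and the HIF core ACGTG. Of the 9 promoters, only that of *Pdp2* held GGAATG, starting at position -48 from the RefSeq start, beside 14.7% of 32851 mouse promoters. ACGTG was found in the promoters of *Pdhb*, *Pdk2*, *Pdk3* and *Pdp2*, beside 19.6% of all promoters. In *Pdk2* and *Pdp2* the match is the palindrome CACGTG, which holds ACGTG on both strands and is therefore 1 element counted on both. Neither GTAAACA (3.65% of all promoters) nor AGGTCA (16.3%) was found in any of the 9, and the promoters of *Pdk4* and *Dlat* held none of the 4 motifs. These matches describe the letters in short windows and say nothing of binding, or of sites farther away.

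The libraries held between 14552847 and 19615627 reads counted on genes. All 10 genes passed the filter on low counts, which kept 13323 genes. Levels below are TMM-scaled CPM (gene counts relative to library size), and differences are log2 fold changes ± SE from an edgeR quasi-likelihood model that took in the 6 libraries together and adjusted for batch. A gene is said to be called when its false discovery rate (FDR, Benjamini-Hochberg over the 13323 genes) was under 0.05. The label says CM nuclei, and the summed CPM of 8 CM markers (*Myh6*, *Tnnt2* and others) was 49538 to 66514 in GFP, 47341 to 60882 in YAP6SA and 30348 to 41607 in YAP5SA. The sum over 8 fibroblast markers was 860 to 1777 CPM across libraries. Native *Yap1*, the mouse gene of the protein overexpressed, lay between 102 and 139 CPM in all libraries and was not called in any comparison; whether reads of the cassette are counted on it was not tested, so it does not check the labels.

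**Figure D1:**
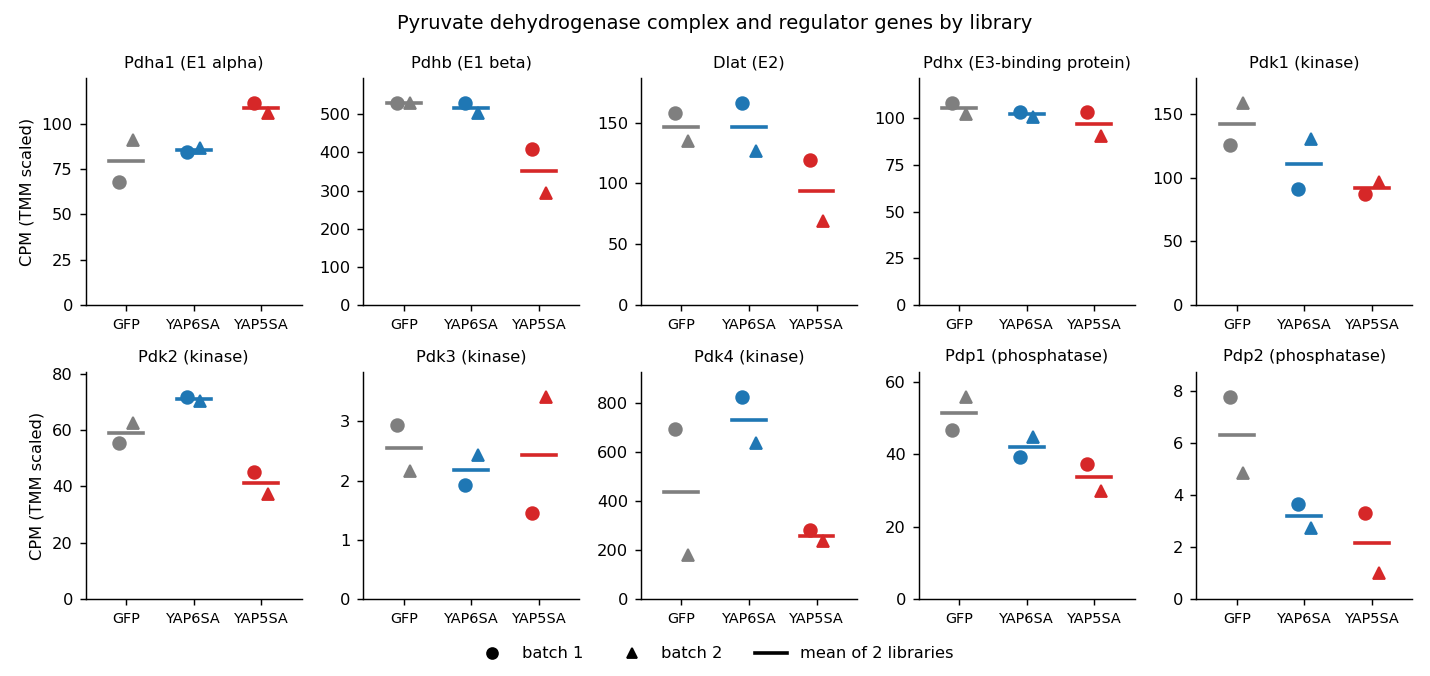
TMM-scaled CPM of the 10 genes (y axes, each from 0) in GFP, YAP6SA and YAP5SA libraries (x axes); circles are batch 1, triangles batch 2 and bars the mean of 2 libraries. The YAP5SA points lie below both GFP points for *Pdhb*, *Dlat*, *Pdk1*, *Pdk2*, *Pdp1* and *Pdp2*, and the GFP points of *Pdk4* lie at 695 and 178 CPM.

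Set per kb of exon, so that genes can be ranked against each other, the most abundant gene of the complex in GFP CMs was *Pdhb* at 137 CPM per kb in both libraries. *Pdk4* reached 198 CPM per kb in the batch 1 library and 50.7 in batch 2, which places it above *Pdhb* in one library and below it in the other. This order turned on the length used: per kb of the longest transcript, *Pdhb* stood at 223 in both libraries and *Pdk4* at 199 and 51.1, below *Pdhb* in each. *Dlat* and *Pdhx* followed at 27.6 to 32.3 and 26.1 to 27.5 CPM per kb, ranges that nearly touch, but per kb of the longest transcript *Pdhx* (43.2 and 40.9) lay above *Dlat* (39.1 and 33.4). *Pdha1* (18.2 and 24.3), *Pdk2* (17.6 and 19.8) and *Pdk1* (16.1 and 20.4) overlapped one another. *Pdp1* lay at 10.3 and 12.4 CPM per kb, and *Pdp2* and *Pdk3* lay lowest, between 0.841 and 1.37.

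*Pdha1* encodes the catalytic E1 alpha subunit, which carries the serines that the kinases phosphorylate. Its CPM was 68.0 and 90.7 in GFP, 84.5 and 86.5 in YAP6SA, and 111 and 106 in YAP5SA, always with batch 1 first. Both YAP5SA libraries lay above all 4 others, but the difference from GFP (log2 0.46 ± 0.16) missed the threshold with an FDR of 0.0667, and without YAP5SA replicate 2 it was called (0.63, FDR 0.0212). *Pdha1* shares 603 of its 3734 exonic bases with *Map3k15* on the opposite strand, and reads there could not be assigned to either gene. *Map3k15* itself had 23 to 51 counts per library, against 1294 to 1891 for *Pdha1*.

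*Pdhb*, the E1 beta subunit that pairs with *Pdha1*, stood at 530 and 530 CPM in GFP and 530 and 503 in YAP6SA, and at 410 and 294 in YAP5SA. The YAP5SA libraries lay below every other library. *Pdhb* fell by 0.61 ± 0.18 on the log2 scale against GFP (FDR 0.0369), while the difference from YAP6SA (-0.57 ± 0.18) had an FDR of 0.0611. Reads of *Pdhb* per read of *Pdha1*, a within-library ratio chosen after the values were seen, were 7.79 and 5.85 in GFP, 6.27 and 5.81 in YAP6SA, and 3.67 and 2.77 in YAP5SA. The ratio in both YAP5SA libraries was below that in all others. It restates the levels of *Pdhb* and *Pdha1* given above and was not tested.

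*Dlat*, the E2 acetyltransferase, had 158 and 135 CPM in GFP, 166 and 126 in YAP6SA, and 119 and 69.0 in YAP5SA. It was lower in batch 2 in each group, and the YAP5SA libraries lay below both other groups. *Dlat* fell by 0.68 ± 0.17 on the log2 scale from GFP (FDR 0.0186) and by 0.67 ± 0.17 from YAP6SA (FDR 0.0270). Within batches the log2 difference from GFP was -0.41 in batch 1 and -0.96 in batch 2. *Pdhx*, the E3-binding protein, was at 102 to 108 CPM in GFP, 101 to 103 in YAP6SA and 90.6 to 103 in YAP5SA, and the groups overlapped in all 3 comparisons. Its difference between YAP5SA and GFP was -0.12 ± 0.14 (FDR 0.579), the smallest among the 10 genes.

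*Pdk4* (ENSMUSG00000019577, chr6:5483351-5496309 on the minus strand of GRCm38) is the inhibitory kinase with the widest spread. It had 695 and 178 CPM in the GFP libraries, 825 and 635 in YAP6SA, and 282 and 235 in YAP5SA. The YAP6SA libraries lay above both YAP5SA libraries by a wide margin, and the GFP libraries lay on both sides of the YAP5SA ones. Against YAP6SA, *Pdk4* fell by 1.48 ± 0.35 on the log2 scale in YAP5SA (FDR 0.0198), with differences of -1.55 in batch 1 and -1.43 in batch 2. The size hardly moved with the test used, but the call was lost in DESeq2 (-1.48, FDR 0.0996) and with no replicate block (-1.50, FDR 0.0868).

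The comparisons of *Pdk4* with GFP turned on which GFP library was used. Batch 2 minus batch 1 was -1.96 on the log2 scale in GFP, -0.38 in YAP6SA and -0.26 in YAP5SA. With 1 GFP library in each batch, batch and the spread of single libraries cannot be told apart there. YAP6SA exceeded GFP by 0.25 on the log2 scale in batch 1 and by 1.83 in batch 2, and the fitted difference of 0.95 ± 0.35 was not called (FDR 0.709, unadjusted p = 0.0211). YAP5SA differed from GFP by -1.30 in batch 1 and by 0.40 in batch 2, with a fitted difference of -0.53 ± 0.35 (FDR 0.310). Without GFP replicate 1, the difference of YAP6SA from GFP was 1.86 and was called (FDR 0.0118), and that of YAP5SA turned to 0.38. Without GFP replicate 2, the values were 0.22 for YAP6SA, not called, and -1.27 for YAP5SA, called (FDR 0.0110). YAP6SA was also called above GFP when either YAP5SA replicate was left out (1.03 in both, FDR 0.0262 without replicate 1 and 0.0233 without replicate 2), with no filter on low counts (0.95, FDR 2.92e-05) and with only the 4 libraries compared (1.04, FDR 0.00590). YAP5SA was called below GFP without YAP5SA replicate 2 (-0.95, FDR 0.0365) and with no filter on low counts (-0.53, FDR 0.0200). Between the YAP variants the difference ran from -1.98 to -1.06 over the 6 fits that each left out 1 library, and it lost its call without YAP6SA replicate 2.

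**Figure D2:**
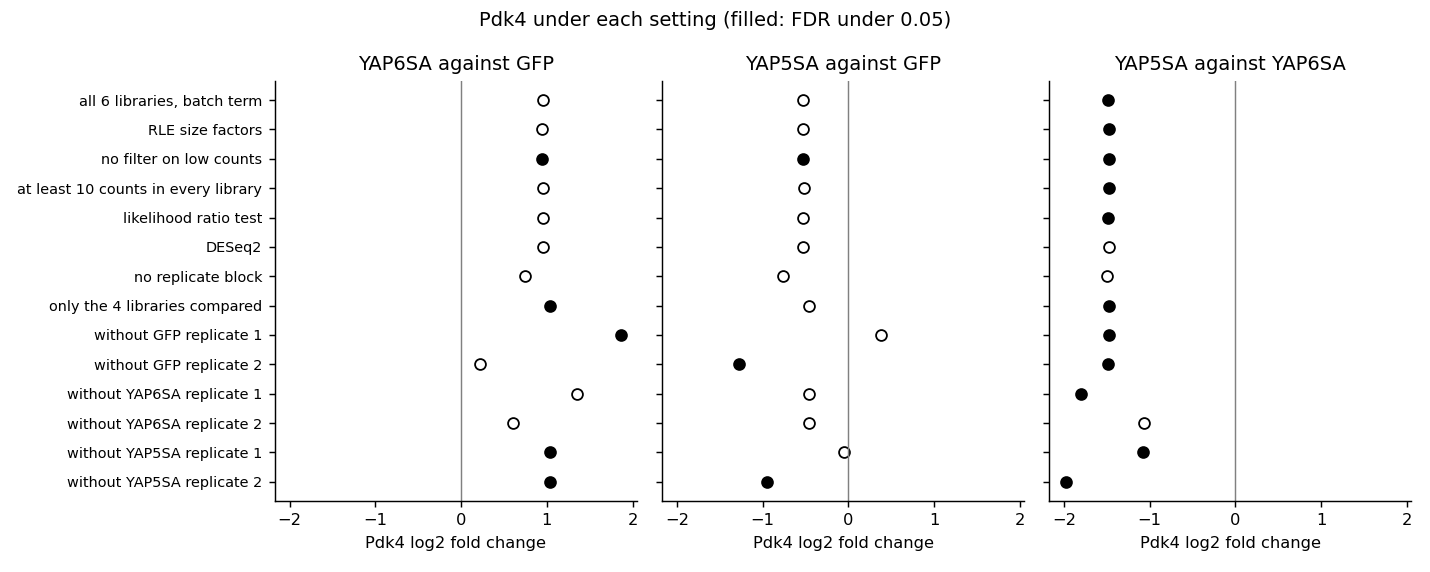
Fitted log2 fold change of *Pdk4* (x axes) in 3 comparisons under each setting (y axis), filled where the FDR was under 0.05. Values against GFP spread from 0.22 to 1.86 for YAP6SA and from -1.27 to 0.38 for YAP5SA as control libraries were left out, while YAP5SA stayed below YAP6SA under every setting shown.

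*Pdk2*, a kinase expressed in most tissues, had 55.6 and 62.8 CPM in GFP, 72.0 and 70.5 in YAP6SA, and 45.2 and 37.3 in YAP5SA. The 3 groups did not overlap. It fell by 0.52 ± 0.17 on the log2 scale from GFP to YAP5SA (FDR 0.0473) and fell by 0.79 ± 0.17 from YAP6SA to YAP5SA (FDR 0.0127). The call against GFP was lost in DESeq2 (-0.53, FDR 0.0702), with no replicate block (FDR 0.0688) and with only the 4 libraries compared (FDR 0.0869), whereas the call against YAP6SA was kept in all 3 of these fits. The difference between YAP6SA and GFP was 0.27 ± 0.16 (FDR 0.878).

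*Pdk1*, the kinase known to respond to HIF, had 126 and 159 CPM in GFP, 91.0 and 131 in YAP6SA, and 87.5 and 96.6 in YAP5SA. Both YAP5SA libraries lay below both GFP libraries, and YAP6SA overlapped with each of the others. *Pdk1* fell by 0.62 ± 0.15 on the log2 scale from GFP to YAP5SA (FDR 0.0186), with -0.52 in batch 1 and -0.72 in batch 2. The difference between YAP6SA and GFP was -0.37 ± 0.15 (FDR 0.804, unadjusted p = 0.0350). *Pdk3*, the remaining kinase, was scarce, with 22 to 61 counts per library and 1.46 to 3.42 CPM, and its groups overlapped in all comparisons. Its SE was 0.52 in each comparison, so a change of the size called for *Pdk1* (0.62) could have been missed. No limit of detection was computed.

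Per kb of exon, the 4 kinases summed to 233 and 91.8 CPM per kb in GFP, 270 and 221 in YAP6SA, and 106 and 92.4 in YAP5SA. *Pdk4* made up 70.1% ± 21.1 of the sum in GFP, 84.4% ± 3.61 in YAP6SA and 73.9% ± 2.20 in YAP5SA (SD, n = 2). It was the leading kinase in every library, and the summed level therefore followed it. Without *Pdk4*, the other 3 kinases summed to 34.9 and 41.1 CPM per kb in GFP, 35.2 and 40.0 in YAP6SA, and 26.1 and 25.6 in YAP5SA, with YAP5SA below the rest. The share of *Pdk1* was 14.6% ± 10.8 in GFP, 5.97% ± 2.32 in YAP6SA and 12.0% ± 2.03 in YAP5SA, and that of *Pdk2* was 14.6% ± 9.94, 9.26% ± 1.18 and 13.1% ± 0.473. *Pdk3* stayed near 1% or less, at 0.705% ± 0.299, 0.354% ± 0.106 and 0.990% ± 0.644.

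**Figure D3:**
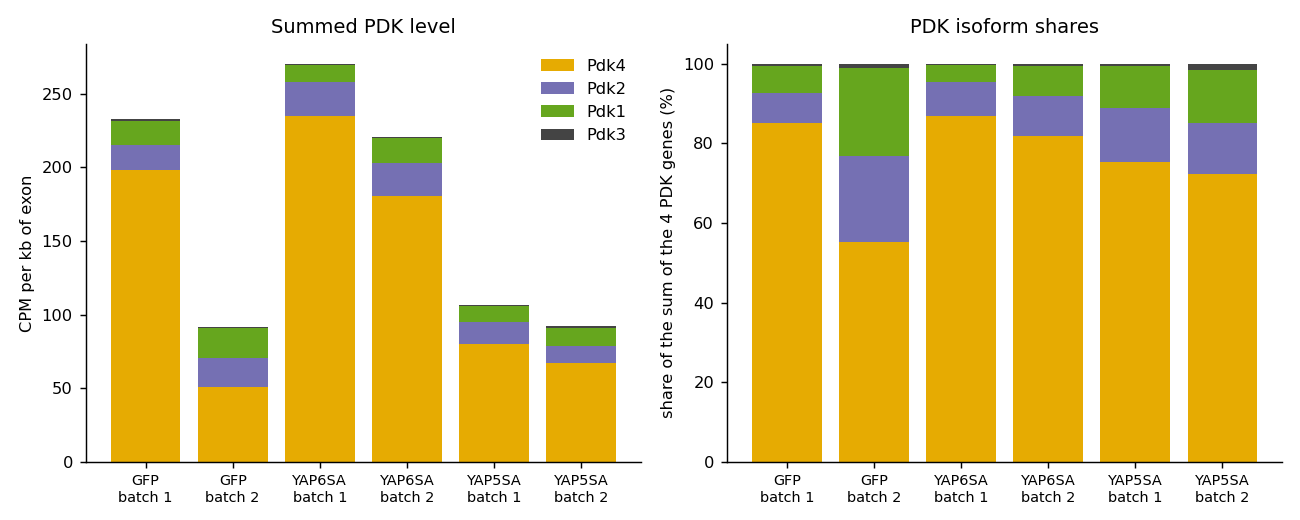
Stacked levels of the 4 kinases in CPM per kb of exon (left, y axis from 0) and their shares of the sum in percent (right) in each of the 6 libraries (x axis). *Pdk4* fills most of every bar, and the GFP library of batch 2, at 91.8 CPM per kb, is closer to the YAP5SA libraries than to the GFP library of batch 1.

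*Pdp1*, the calcium-stimulated phosphatase of heart and skeletal muscle, had 46.5 and 55.9 CPM in GFP, 39.3 and 44.8 in YAP6SA, and 37.3 and 29.9 in YAP5SA. The groups formed a descending order without overlap, GFP above YAP6SA above YAP5SA, but only YAP5SA against GFP was called: *Pdp1* fell by 0.60 ± 0.19 on the log2 scale (FDR 0.0453). That call was lost in DESeq2 (-0.61, FDR 0.0530), with no replicate block (FDR 0.0614) and with only the 4 libraries compared (FDR 0.0656). The difference between YAP6SA and GFP was -0.28 ± 0.19 (FDR 0.899). *Pdp2*, the second phosphatase, rested on few reads, 148 and 74 counts in GFP, 72 and 45 in YAP6SA, and 50 and 18 in YAP5SA. That is 7.78 and 4.83 CPM in GFP, 3.66 and 2.73 in YAP6SA, and 3.31 and 1.01 in YAP5SA, so both GFP libraries stood above all others. *Pdp2* fell by 1.65 ± 0.45 on the log2 scale from GFP to YAP5SA (FDR 0.0263), and the difference between YAP6SA and GFP was -0.95 ± 0.43 (FDR 0.838). In the ratio of the summed kinases to the summed phosphatases, per kb and chosen after the values were seen, GFP spanned 19.9 and 6.93, YAP6SA 28.9 and 21.2, and YAP5SA 12.0 and 13.6. The YAP5SA values lay between the GFP ones and below both YAP6SA values.

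Counted over the 10 genes, 6 were called lower and 0 higher in YAP5SA than in GFP, where 22.0% of all genes tested were called, 9.18% lower and 12.8% higher. Their median log2 difference was -0.57, against -0.0031 over all genes. Both YAP5SA libraries lay below both GFP libraries for 6 of the 10, the genes that were called, where 29.7% of all genes did so. Between YAP5SA and YAP6SA, 3 were called lower and 0 higher (14.7% of all genes called, 5.68% lower), with a median of -0.44 against -0.013 over all genes. Between YAP6SA and GFP edgeR called 0 of the 10 and 0.0450% of all genes, with 2 of the 10, *Pdk1* and *Pdk4*, at an unadjusted p under 0.05, where 5.93% of all genes were. DESeq2 also called 0. Tested for any difference among the 3 groups, 4 of the 10 were called (*Dlat*, *Pdk1*, *Pdk2* and *Pdk4*), beside 17.6% of all genes. Comparisons with GFP share the control libraries, so they are not independent of each other.

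**Figure D4:**
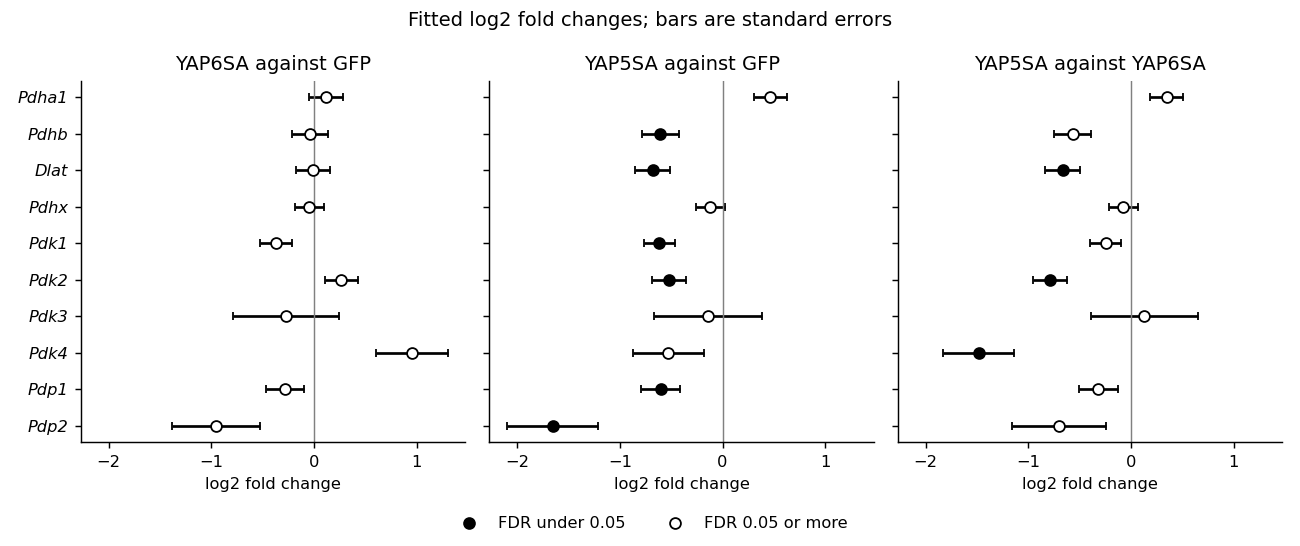
Fitted log2 fold changes (x axes) of the 10 genes (y axis) in 3 comparisons; bars are standard errors and filled points have an FDR under 0.05. In YAP5SA against GFP 6 points are filled, all below 0, in YAP5SA against YAP6SA 3, and in YAP6SA against GFP none.

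The calls in YAP5SA depended on the tool, on single libraries and on the batch term. DESeq2 called 4 of the 10 genes against GFP, *Pdhb*, *Dlat*, *Pdk1* and *Pdp2*, and with only the 4 libraries compared 3 were called, *Dlat*, *Pdk1* and *Pdp2*. Leaving out one library in turn, between 1 and 6 of the 10 genes were called against GFP: *Dlat* alone without GFP replicate 1, *Pdk4* alone without GFP replicate 2, *Pdha1* and *Pdk4* without YAP5SA replicate 2, and *Dlat*, *Pdk1* and *Pdp2* without either YAP6SA replicate. *Pdhb*, *Dlat*, *Pdk1*, *Pdk2*, *Pdp1* and *Pdp2* remained below GFP in sign in all 6 of these fits. In the fit with no replicate block, which drops the pairing by batch, 0 of the 10 were called in YAP5SA against GFP and 1, *Pdk2*, in YAP5SA against YAP6SA. Against YAP6SA, 1 was called without YAP6SA replicate 1 (*Pdk4*), 0 without YAP6SA replicate 2 and 5 without YAP5SA replicate 1. The batch term called 0 of the 10 genes and 0.203% of all genes, with 4 of the 10 at an unadjusted p under 0.05, where 12.1% of all genes were, and DESeq2 also gave 0 for the 10.

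Genes around the complex were read in the same way. *Dld*, the E3 enzyme that PDC shares with its sister complexes, was not called in YAP5SA against GFP (-0.38 ± 0.17, FDR 0.126), nor was *Pdpr*, the regulatory subunit of the phosphatase (-0.65 ± 0.25, FDR 0.0833). *Pdha2*, the testis form of E1 alpha, had 0 counts in all libraries.

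Among 16 genes of pyruvate supply and its other fates, 3 were called higher and 4 lower in YAP5SA than in GFP, where 12.8% of all genes were called higher and 9.18% lower. *Mpc1*, a subunit of the carrier that brings pyruvate into mitochondria, fell by 0.95 ± 0.22 on the log2 scale, from 53.5 and 37.7 CPM to 35.2 and 14.9. The partner subunit *Mpc2* was not called against GFP (-0.42 ± 0.14, FDR 0.0577), but it was lower in YAP5SA than in YAP6SA (-0.77 ± 0.14, FDR 0.00727). The other genes called lower were the alanine transaminases *Gpt* (-1.03 ± 0.19) and *Gpt2* (-1.01 ± 0.23) and *Ldhb* (-0.73 ± 0.18), the lactate dehydrogenase subunit typical of heart. Those called higher were *Slc16a3*, a lactate exporter (1.07 ± 0.32), *Me1*, the cytosolic malic enzyme (0.93 ± 0.25), and *Ldha*, the lactate dehydrogenase subunit typical of glycolytic tissue (0.60 ± 0.15). *Ldha* had 205 and 186 CPM in GFP, 320 and 260 in YAP6SA and 301 and 291 in YAP5SA, with no overlap between GFP and either variant, but its difference between YAP6SA and GFP (0.56 ± 0.15) had an FDR of 0.504. This count of 7 went to 3 without GFP replicate 1, 0 without GFP replicate 2, 4 without YAP5SA replicate 2 and 4 with no replicate block.

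*Pdk4* is known to be switched on by PPAR, ERR, FOXO and glucocorticoid receptors, so 15 of these factors and cofactors were read. In YAP5SA against GFP, 5 were called, all lower, beside 9.18% of all genes: *Rxrg*, a retinoid X receptor that partners PPARs (-1.67 ± 0.37), *Esrrb* (-1.42 ± 0.45), the coactivator *Ppargc1b* (-1.25 ± 0.17), *Esrra* (-1.0 ± 0.19) and the glucocorticoid receptor *Nr3c1* (-0.45 ± 0.14). *Ppara* (-0.92 ± 0.35, FDR 0.0888), *Ppargc1a* (-0.94 ± 0.35, FDR 0.0846) and *Foxo1* (0.27 ± 0.24, FDR 0.438) were not called. Against YAP6SA, 4 were called lower, beside 5.68% of all genes: *Rxrg* (-1.64 ± 0.37), *Ppargc1a* (-1.55 ± 0.36), *Ppargc1b* (-0.94 ± 0.17) and *Esrra* (-0.77 ± 0.19). *Rxrg* had 66.9 and 59.9 CPM in GFP and 67.2 and 57.3 in YAP6SA. Its YAP5SA libraries were unlike each other, at 36.3 and 9.19 CPM. *Ppargc1a*, a coactivator of PPAR and ERR, had 116 and 177 CPM in GFP, 357 and 137 in YAP6SA and 95.1 and 66.7 in YAP5SA, so its YAP6SA libraries differed from each other far more than the YAP5SA ones. The count of 5 against GFP went to 2 without GFP replicate 2, 9 without YAP5SA replicate 1, 3 without YAP5SA replicate 2, 3 by DESeq2 and 2 with no replicate block. The count of 4 against YAP6SA went to 1 without YAP6SA replicate 1, 2 without YAP6SA replicate 2, 2 by DESeq2 and 2 with no replicate block.

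Of 18 other targets of PPAR, which handle fatty acids, 12 were called lower and 0 higher in YAP5SA than in GFP (9.18% of all genes lower), with a median of -0.95. The largest differences were those of *Acot1*, an acyl-CoA thioesterase (-1.66 ± 0.35), *Ucp3*, a mitochondrial carrier (-1.43 ± 0.21), and *Plin5*, a coat protein of lipid droplets (-1.39 ± 0.18). In YAP5SA against YAP6SA, 9 were called lower, beside 5.68% of all genes. They were led by *Cpt1b* of mitochondrial fatty acid entry (-1.29 ± 0.18), *Acot1* (-1.29 ± 0.35) and *Plin5* (-1.26 ± 0.18). Between YAP6SA and GFP edgeR and DESeq2 called 0 of the 18, where edgeR called 0.0450% of all genes. In edgeR, 6 of the 18 had an unadjusted p under 0.05, beside 5.93% of all genes. The count of 12 went to 6 without GFP replicate 2, and the count of 9 went to 14 without YAP5SA replicate 1, 2 without YAP6SA replicate 2 and 5 with no replicate block.

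**Figure D5:**
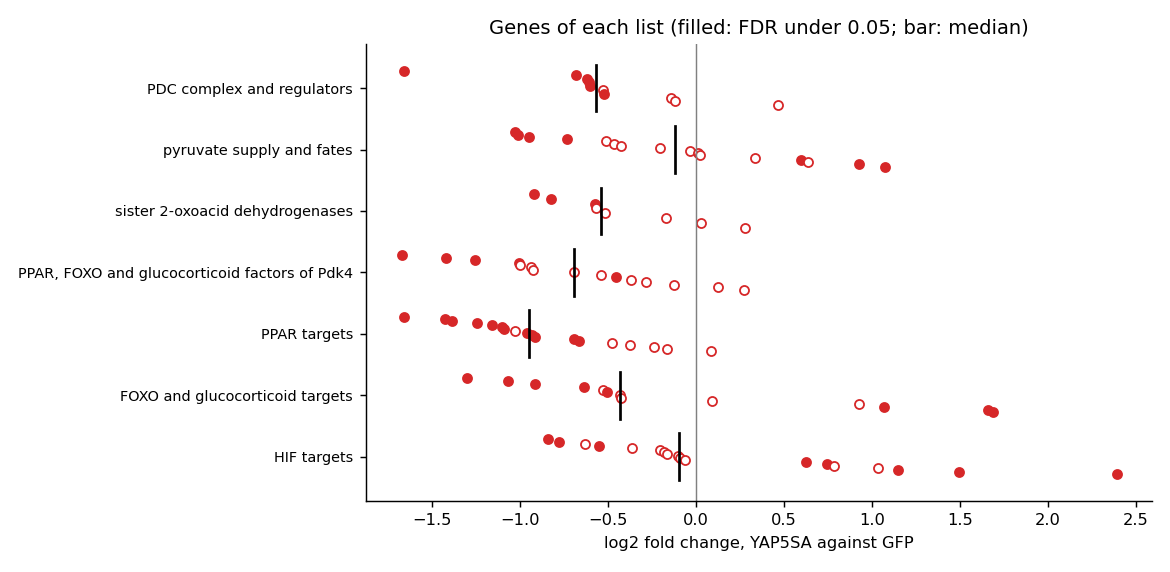
Log2 fold change in YAP5SA against GFP (x axis) for each tested gene of 7 lists (y axis), filled where the FDR was under 0.05, with a bar at the median of the list. The PDC genes have 6 filled points, all lower, with a median of -0.57, beside 12 filled and lower among the PPAR targets.

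Genes with the pattern most like that of a PDC gene over the 6 libraries were sought by Pearson's r of log2 CPM among genes whose log2 CPM averaged 3 or more. For *Pdk4* these were *Mrpl19* (0.991), *Fabp3* (0.990), *Fem1a* (0.989), *Tsn* (0.987) and *Slc25a16* (0.985). *Fabp3*, the fatty acid-binding protein of heart and a member of the PPAR list, had 664 and 384 CPM in GFP, 757 and 669 in YAP6SA, and 474 and 394 in YAP5SA. Like *Pdk4*, it was high in the GFP library of batch 1 and low in that of batch 2. For *Dlat* the rule named *Mrpl45* (0.997), *Ankrd9* (0.994) and *Dram2* (0.994), for *Pdk1* *Klhl12* (0.997), *Gtf3c2* (0.995) and *Ubn2* (0.994), and for *Pdk2* *Eif2d* (0.995), *Smim10l1* (0.993) and *Gm9821* (0.992). With 6 points and 9909 candidates such coefficients are a description only.

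Of 8 CM markers, 2 were called lower in YAP5SA than in GFP, *Pln* (-1.04 ± 0.21) and *Ryr2* (-0.81 ± 0.25). In that comparison 22.0% of all genes were called, 9.18% lower and 12.8% higher. The median of the 8 was -0.76, against -0.0031 over all genes. In a bulk preparation, fewer CM nuclei and less RNA per nucleus cannot be told apart, and the part of this difference in the PDC results was not tested. The count of 2 became 0 without GFP replicate 2, 1 without either YAP6SA replicate, 6 without YAP5SA replicate 1 and 4 by DESeq2. Of 8 fibroblast and 8 endothelial markers, edgeR and DESeq2 called 0 in YAP5SA against GFP, with 3 fibroblast and 0 endothelial markers at an unadjusted p under 0.05. Of 6 erythroid markers 2 passed the filter, and neither tool called one. Among macrophage markers *C1qa* was called higher (0.96 ± 0.25), and among mural markers *Myh11* was higher (1.00 ± 0.27) and *Abcc9*, which CMs also express, lower (-0.81 ± 0.22). The fibroblast sum was higher in batch 1 than in batch 2 in each group (1367 against 860 CPM in GFP, 1777 against 984 in YAP6SA, 1496 against 906 in YAP5SA). *Pdk4*, *Dlat*, *Pdhx* and *Pdp2* were also higher in batch 1 in each group. *Pdk1* was lower in batch 1 in each group, and the rest of the PDC genes had no common direction. The part of the fibroblast sum in those levels was not tested.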

How the data were processed

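Per the labels and methods, the authors used STAR with the mm10 genome and Ensembl genes of GRCm38, and they deposited raw read counts per gene, 1 column per library, with no normalization or filter. Reads that were ambiguous between genes (5.79% to 6.31% of a library), outside genes, multimapping or unmapped are not in the gene counts. Names and coordinates were taken from GENCODE M21 (54409 of 54532 genes), where all 10 symbols matched 1 identifier each.

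From these counts, genes with a median log2 CPM over 1 in at least 1 group were kept, which left 13323. They were fitted with edgeR 4.0.16 in R 4.3.3 (TMM, quasi-likelihood, terms for batch and group), with Benjamini-Hochberg adjustment over all genes kept. DESeq2 1.42.0 and other settings served as alternatives. The self-test on simulated counts put in changes of at least 1 on the log2 scale, with no batch effect. How far they were recovered does not bear on smaller differences, which include most of those called among the 10 genes. The batch term pairs the libraries, since the labels give the replicate number as the batch number, and libraries of a batch deviated together from their group means (correlations across genes of 0.368, 0.0985 and 0.175 for the 3 pairs of groups). Replicates of a group differed by a chi-square of 25.3 to 39.6 for each degree of freedom, so none was a copy of another. P-values rest on the spread left between these libraries after the batch and group terms, estimated in part across genes.

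Levels per kb used merged exon length. The 10 genes, the other gene lists and the likeness rule were chosen with earlier results of these data known. Named were the 10 genes; of each list the called genes, at most 3 of the largest differences in each direction, with *Dld*, *Pdpr*, *Mpc1*, *Mpc2*, *Ppara*, *Ppargc1a*, *Esrra*, *Foxo1* and *Nr3c1* in any case; the 5 genes most like *Pdk4* and the 3 most like each other member called for any difference among groups; and *Yap1*. *Ldhb*, *Map3k15* and the marker genes were named after their values were seen. Promoters came from RefSeq. Values of 1 listed gene, and the counts of the list that holds it, are not reported here.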

Additional observations from a re-analysis of the deposited data

How the results depend on the processing

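With 2 libraries per group, the depth of *Pdk3* and *Pdp2* and the spread of *Pdk4* in GFP limit what can be said. Counts of the 10 genes called between YAP6SA and GFP were 1 with no filter on low counts and 1 with only the 4 libraries compared, and all genes called numbered 145, 82 (likelihood ratio test), 54 (DESeq2), 0 (no replicate block) and 276 (4 libraries). With no replicate block, 0 of the 10 were called in YAP5SA against GFP and 1 of the 10 and 1152 genes in YAP5SA against YAP6SA, with 1 of the 10 and 1402 genes for any difference; with the 4 libraries compared, 3 of the 10 were called in YAP5SA against GFP. The batch term called 2 of the 10 and 485 genes with no filter, 349 genes in the likelihood ratio test and 180 in DESeq2. The causes were not tested.

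Leaving out each library, in which the lone library is assumed to vary like the other groups, the 10 genes and all genes called ran from 0 to 1 and 6 to 213 for YAP6SA against GFP, 1 to 6 and 738 to 4863 for YAP5SA against GFP, 0 to 5 and 396 to 4160 for YAP5SA against YAP6SA, 0 to 7 and 1569 to 4481 for any difference, and 0 to 1 and 5 to 596 for batch. Log2 differences that changed sign there ran, for YAP6SA against GFP, from -0.097 to 0.34 (*Pdha1*), -0.18 to 0.10 (*Pdhb*), -0.19 to 0.17 (*Dlat*), -0.093 to 0.0030 (*Pdhx*) and -0.82 to 0.40 (*Pdk3*), for YAP5SA against GFP from -0.83 to 0.48 (*Pdk3*) and -1.27 to 0.38 (*Pdk4*), for YAP5SA against YAP6SA from -0.13 to 0.0050 (*Pdhx*) and -0.59 to 0.69 (*Pdk3*), and for batch from -0.027 to 0.22 (*Pdha1*), -0.16 to 0.066 (*Pdk2*), -0.070 to 0.77 (*Pdk3*) and -0.068 to 0.22 (*Pdp1*). No other setting changed a sign for the 10 genes.

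Shares of the 4 kinases by longest transcript were 8.31% (*Pdk1*), 12.1% (*Pdk2*) and 79.2% (*Pdk4*) in YAP6SA and 16.1%, 16.5% and 66.4% in YAP5SA. Without division by length they were 26.9% (*Pdk1*) in GFP, 12.4%, 7.84%, 0.242% (*Pdk3*) and 79.5% in YAP6SA, and 23.5%, 10.5% and 65.4% in YAP5SA.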

Other observations

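The sister complexes of PDC, which oxidize 2-oxoglutarate and branched-chain 2-oxoacids with the same E3 enzyme, were read from 8 genes. In YAP5SA against GFP, 3 were called lower and 0 higher, beside 9.18% and 12.8% of all genes, with a median of -0.54: *Ogdh*, the E1 of the 2-oxoglutarate complex (-0.92 ± 0.20), *Ppm1k*, the phosphatase of the branched-chain complex (-0.82 ± 0.25), and *Dlst*, the E2 of the 2-oxoglutarate complex (-0.57 ± 0.18). *Ogdh* had 793 and 905 CPM in GFP, 926 and 750 in YAP6SA, and 535 and 378 in YAP5SA. It was the gene of this list called lower in YAP5SA than in YAP6SA (-0.88 ± 0.20), beside 5.68% of all genes. Between YAP6SA and GFP edgeR and DESeq2 called 0 of the 8, where edgeR called 0.0450% of all genes. In edgeR, 0 of the 8 had an unadjusted p under 0.05, beside 5.93% of all genes. The count of 3 went to 1 without GFP replicate 1, 0 without GFP replicate 2, 1 without YAP5SA replicate 2 and 1 with no replicate block, and no gene of the list was called against YAP6SA without YAP6SA replicate 2, while 3 were without YAP5SA replicate 1.

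Of 18 HIF targets, the class to which *Pdk1* belongs, 5 were called higher and 3 lower in YAP5SA than in GFP, beside 12.8% and 9.18% of all genes, with a median of -0.095. The largest differences were those of the glucose transporter *Slc2a1* (2.39 ± 0.48), the prolyl hydroxylase of collagen *P4ha1* (1.49 ± 0.24) and *Ndrg1* (1.15 ± 0.32), all higher, whereas *Pfkfb4* (-0.84 ± 0.19), the hexokinase *Hk2* (-0.77 ± 0.20) and *Ero1l* (-0.55 ± 0.15) were lower. *Slc2a1* had 8.41 and 4.37 CPM in GFP, 6.77 and 5.33 in YAP6SA, and 18.7 and 51.0 in YAP5SA. *Pdk1* itself fell, as described above. The count of 8 went to 3 without GFP replicate 1, 1 without GFP replicate 2, 4 without YAP5SA replicate 2 and 5 without YAP6SA replicate 1.

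Of 13 targets of FOXO and the glucocorticoid receptor, 3 were called higher and 5 lower in YAP5SA than in GFP, beside the same 12.8% and 9.18% of all genes, among them *Fkbp5* (1.69 ± 0.44), *Irs2* (1.66 ± 0.22) and *Cdkn1a* (1.07 ± 0.19) higher and *Txnip* (-1.30 ± 0.36), *Fbxo32* (-1.06 ± 0.30) and *Sesn1* (-0.91 ± 0.17) lower. *Irs2*, an adaptor of the insulin receptor, was also called in YAP6SA against GFP (1.64 ± 0.22), with 20.5 and 13.0 CPM in GFP, 78.7 and 31.8 in YAP6SA and 61.7 and 42.7 in YAP5SA. The count of 8 went to 4 without GFP replicate 2, 4 without YAP5SA replicate 2 and 5 with no replicate block.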
